A study of Mus musculus with 12 samples.

Results

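The genes described here encode the proteins of the cytosolic ribosome, taken as every row of the liver expression table whose symbol is Rps, Rpl or Rplp followed by a protein number. The rule found 82 genes of 18560, of which 31 belong to the small (40S) subunit and 51 to the large (60S) subunit, and 79 passed a filter of at least 1 FPKM in at least 3 libraries. FPKM, fragments per kilobase of transcript scaled to the mapped fragments of the library, is the unit of the deposited values. The livers came from mice aged 12 months in 4 groups of 3 libraries each, which were OXR1A-/- males, wild-type males, OXR1A-/- females and wild-type females. The tag OXR1A-/- names loss of the A form of Oxr1, a gene of resistance to oxidative stress. The labels name no Cre, tissue-specific promoter or treatment, and they state neither how the allele was made nor whether each library is its own animal. Each p-value therefore refers to the spread among libraries, which may be partly technical. Poly(A) RNA was selected from total liver RNA and copied with random hexamers.

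Fragments over the whole Oxr1 gene gave 25.0, 22.9 and 22.1 FPKM in OXR1A-/- males, 23.2, 12.1 and 18.4 FPKM in wild-type males, 20.05, 19.7 and 21.0 FPKM in OXR1A-/- females, and 17.4, 17.5 and 20.6 FPKM in wild-type females. A gene-level value cannot check the loss of 1 isoform, so it does not test the genotype labels. Depth, estimated from the steps of low FPKM values, was 20250000 to 29990000 fragments per library, and the median ribosomal protein gene received an estimated 3759 to 8466 fragments. Xist and Y-linked genes followed the labelled sex, with traces of the other sex in OXR1A-/- male 3 (Xist 0.82 FPKM), OXR1A-/- female 1 (Eif2s3y 0.85 FPKM) and wild-type female 1 (Eif2s3y 1.89 FPKM). Hepatocyte markers were abundant in every library, with a summed level of at least 47560 FPKM over 5 genes.

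A ribosome holds 1 copy of nearly every one of these proteins, and cells make them in matched amounts. Their mRNAs are short and abundant, and nearly all begin with a cytosine followed by an uninterrupted run of pyrimidines, the 5' terminal oligopyrimidine (5'TOP) tract. Through this tract the kinase complex mTORC1 controls how strongly the mRNAs are translated, a step that mRNA levels do not measure. Liver, which makes most plasma proteins, is rich in ribosomes.

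The bases around the annotated start are shown for genes with and without such a run there. Values of 7 of the 8 genes follow below, and Rps10 is shown for its run, the longest of the 8. Each window runs from 15 bases before the start to 15 bases from it, in RefSeq's annotation of GRCm38.p6, and capitals mark an unbroken run of at least 5 C or T letters that begins with C at the start itself.
Rps6: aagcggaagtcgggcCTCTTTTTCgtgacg
Rps18: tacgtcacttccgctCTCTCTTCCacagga
Rps10: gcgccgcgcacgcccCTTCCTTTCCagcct
Rplp2: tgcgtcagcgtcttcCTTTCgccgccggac
Rpl28: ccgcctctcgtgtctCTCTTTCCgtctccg
Rps27: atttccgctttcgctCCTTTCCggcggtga
Rps27l: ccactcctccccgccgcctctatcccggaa
Rpl7l1: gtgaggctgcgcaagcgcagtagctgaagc
The windows are chr4:86857353-86857382 (minus strand) for Rps6, chr17:33955651-33955680 (minus) for Rps18, chr17:27635230-27635259 (minus) for Rps10 and chr7:141447636-141447665 (plus) for Rplp2. Those of Rpl28, Rps27, Rps27l and Rpl7l1 are chr7:4792950-4792979 (plus), chr3:90213634-90213663 (minus), chr9:66946071-66946100 (plus) and chr17:46782642-46782671 (minus). The runs at the start are 9 bases in Rps6 and Rps18, 10 in Rps10, 8 in Rpl28, 7 in Rps27 and 5 in Rplp2, and the windows of the paralogues Rps27l and Rpl7l1 have none there. The Rps27l window lies at an annotated start inside the gene's span (chr9:66944624-66949522), so the outermost start of Rps27l is not shown. Of 62 ribosomal protein genes with a RefSeq window, 13 (21.0%) began with such a run on the coding strand, against 813 of 27025 genes in the table (3.0%). A gene was counted if any of its windows had the run. Annotated starts can lie a few bases from the real ones. A run of at least 8 pyrimidines anywhere from 20 bases before to 30 bases after the start was found in 34 of the 62 (54.8%), against 5811 of all genes (21.5%).

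The genes lie on 19 chromosomes, with 14 on chromosome 7 and 4 on the X. They were among the abundant mRNAs of these livers: 73 averaged at least 100 FPKM over the 12 libraries, 5 lay between 10 and 100 FPKM, 1 between 1 and 10 FPKM and 3 under 1 FPKM. Rpl10, which joins the large subunit late in its assembly, averaged 571 FPKM, Rpl23a 568 FPKM and Rpl41, which encodes a very short basic peptide, 525 FPKM. Together the 82 genes took 3.13 to 4.34% of the summed FPKM of a library.

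The 3 genes under 1 FPKM were tissue-restricted paralogues. Rpl10l, an autosomal copy of Rpl10 used in the testis, was listed at 0.27 FPKM in OXR1A-/- male 2 and at 0 in the other libraries. Rpl3l, the striated-muscle form of Rpl3, and Rpl39l, a testis form of Rpl39, stayed at or below 0.18 and 0.35 FPKM. Rps15a, at 5.87 FPKM, was the only low member of the other 79. Its annotated transcript of 5179 bases is the longest among them, and pseudogene rows with near-identical sequence (Rps15a-ps4 and Rps15a-ps6) were higher, at 15.8 to 31.5 and 20.9 to 39.9 FPKM, so its level is uncertain.

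**Figure D1:**
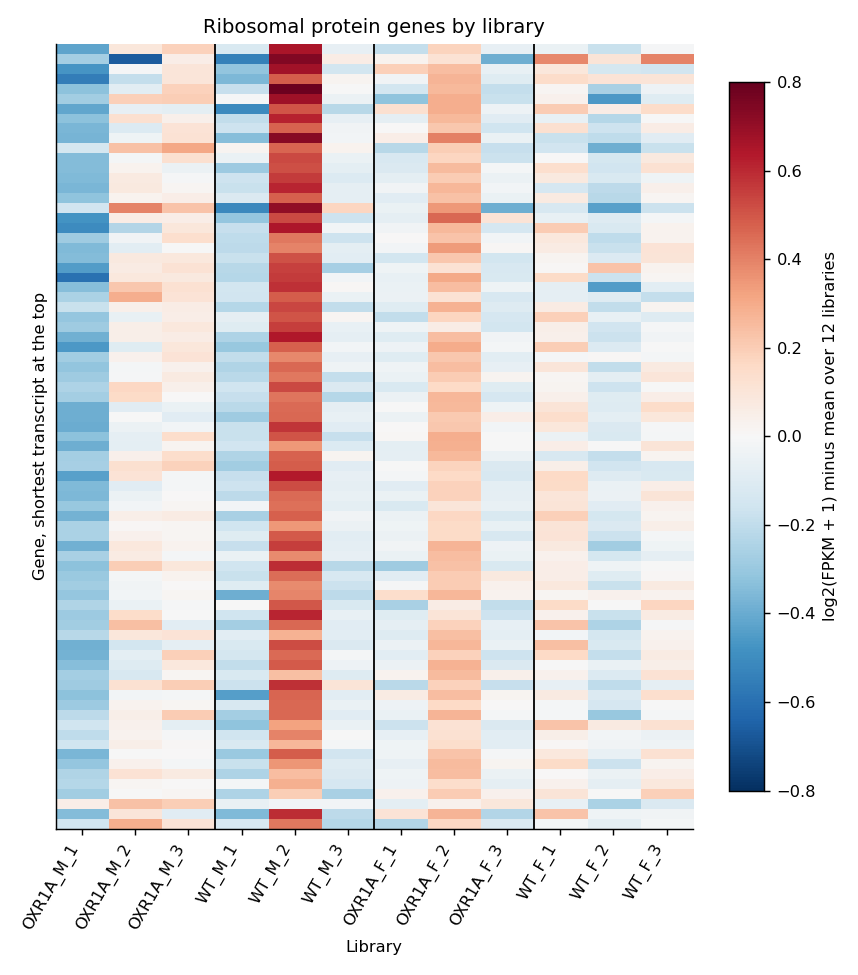
Each row is 1 of 79 ribosomal protein genes, shortest transcript at the top, and each column 1 library. Colour gives log2(FPKM + 1) minus the gene's mean over the 12 libraries, red above and blue below it. The column of wild-type male 2 is red in nearly every row and that of OXR1A-/- male 1 blue, while the other 2 libraries of each of these groups are paler.

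The genes moved together from library to library, and libraries of the same group lay far apart in places. The score of a library is the median, over the 79 genes, of log2(FPKM + 1) minus each gene's mean over the 12 libraries. It was -0.32, 0.03 and 0.05 in OXR1A-/- males and -0.18, 0.48 and -0.07 in wild-type males. In OXR1A-/- females it was -0.05, 0.23 and -0.07, and in wild-type females 0.05, -0.12 and 0.02. The highest library, wild-type male 2, and the lowest, OXR1A-/- male 1, each stood apart from both other libraries of their group, and the ranges of knockout and wild-type libraries overlapped in both sexes. Wild-type male 2 held the highest value of 75 of the 79 genes, and OXR1A-/- male 1 the lowest of 62.

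Gene by gene, the SD of log2 levels within groups was larger than the SD of the 4 group means in 78 of the 79 genes, with medians of 0.24 and 0.09. Means of 3 libraries vary less than single libraries even without group differences, so this contrast does not set both spreads on equal terms. The median SD over the 12 libraries was 0.22, and 0.08 once each library's score was subtracted, so most of the variation was common to the family. Small-subunit and large-subunit genes shared the pattern: in wild-type male 2 their separate scores were 0.48 and 0.49, and in OXR1A-/- male 1 they were -0.35 and -0.29.

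The score followed the library's balance between short and long transcripts. Ribosomal protein mRNAs are short, with a median annotated transcript of 791 bases (371 bases for Rpl38 to 5179 for Rps15a), against 2722 bases over all tested genes. The length slope of a library is the change in log2 level, relative to the 12-library mean, per doubling of transcript length over the tested genes outside the family. A negative slope means a library relatively rich in short transcripts. It was 0.12, -0.0046 and -0.08 in OXR1A-/- males, 0.09, -0.21 and 0.03 in wild-type males, 0.02, -0.09 and 0.0011 in OXR1A-/- females, and 0.03, 0.07 and 0.02 in wild-type females. The extreme slopes belonged to the same libraries, wild-type male 2 and OXR1A-/- male 1, as the extreme scores.

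Over the 12 libraries, slope and score had a Pearson r of -0.95 and a Spearman rho of -0.87. Without wild-type male 2 and OXR1A-/- female 2, the libraries farthest from the median slope, r was -0.84 and rho -0.78 (n = 10), and with group means subtracted they were -0.98 and -0.95. These are descriptions, since both measures come from the same libraries. The correlation with the slope was negative for all 79 genes taken singly, from -0.97 in Rpl10a to -0.29 in Rpl7l1, with a median of -0.89. Other families followed the slope too: the 76 mitochondrial ribosomal protein genes with r = -0.89 and 23 other 5'TOP mRNAs with r = -0.76.

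**Figure D2:**
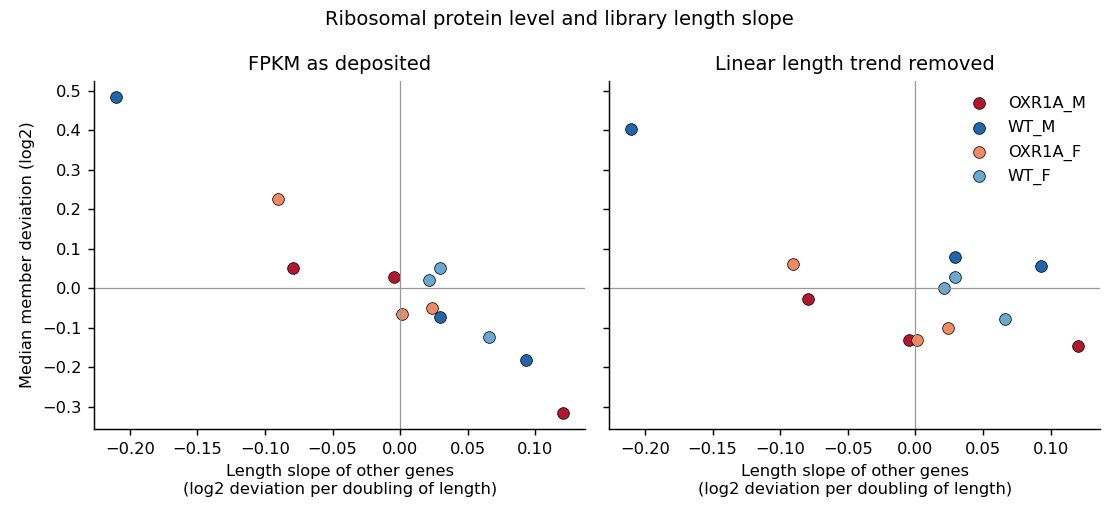
The horizontal axis gives each library's length slope (log2 per doubling of transcript length, from genes outside the family) and the vertical axis its ribosomal protein score (log2), before (left) and after (right) a linear length trend was removed. Before removal the points fall along a line (r = -0.95 over 12 libraries). After removal the 3 OXR1A-/- males lie below the 3 wild-type males, and wild-type male 2 remains farthest from the rest at 0.40.

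With a linear length trend taken out of each library the scores became -0.15, -0.13 and -0.03 in OXR1A-/- males and 0.06, 0.40 and 0.08 in wild-type males. In OXR1A-/- females they became -0.10, 0.06 and -0.13, and in wild-type females 0.03, -0.08 and 0. On this scale the male groups did not overlap and the female groups did. The correlation with the slope was then r = -0.70 and rho = -0.28.

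OXR1A-/- males were set against wild-type males, and no ribosomal protein gene passed the test. limma with Benjamini-Hochberg adjustment over the 11514 tested genes called 0 of the 79 at an adjusted p under 0.05, against 2.55% of all tested genes, and 0 of the 79 had an unadjusted p under 0.05, against 23.9% of all tested genes. The log2 differences of log2(FPKM + 1) were negative in 74 of the 79 (93.7%), against 21.2% of all genes. Their median was -0.16, against 0.19 for all tested genes, and they ran from -0.38 in Rpl36 to 0.20 in Rpl7l1. The median 95% interval reached 0.40 either side of the estimate, so shifts of the size seen were not detectable gene by gene.

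The small-subunit and large-subunit medians were -0.16 and -0.15. The 39 genes with transcripts under 791 bases had a median of -0.18 and the other 40 a median of -0.13. Set beside genes of the same length class outside the family, the members had lower medians in males: it was -0.17 in the 24 members of 500 to 750 bases and 0.01 in the 282 other genes of that class. From 1000 to 1500 bases it was -0.15 in 14 members and 0.11 in 1219 other genes.

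On the deposited scale this direction rested on 1 library. Without wild-type male 2, the median of the 79 was 0.05, with 19 negative, and the median of all genes was 0.12. Leaving out any 1 of the other 5 male libraries gave medians from -0.29 to -0.03, the value nearest 0 coming without OXR1A-/- male 1. With the linear length trend removed, the median was -0.29, all 79 were negative, against 52.5% of all genes, and 47 had an unadjusted p under 0.05, against 19.6% of all genes. After adjustment limma called 0 of the 79 on that scale too, against 2.62% of all genes. With a smooth length trend removed, 77 were negative, against 47.8% of all genes, and 38 had such an unadjusted p, against 20.3%. With each library's slope as a covariate in the fit the median was -0.07 and 60 were negative, against 22.9% of all genes. There 4 had an unadjusted p under 0.05, against 34.9% of all genes, and 0 were called, against 13%. Median-ratio scaling, which moved the median of all genes to 0.01, gave a median of -0.39. It left 79 negative, against 48.8% of all genes, and 2 with such a p, against 14.9%. With 3 libraries in a group, a shift of these genes with genotype and one that comes with single libraries cannot be told apart.

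**Figure D3:**
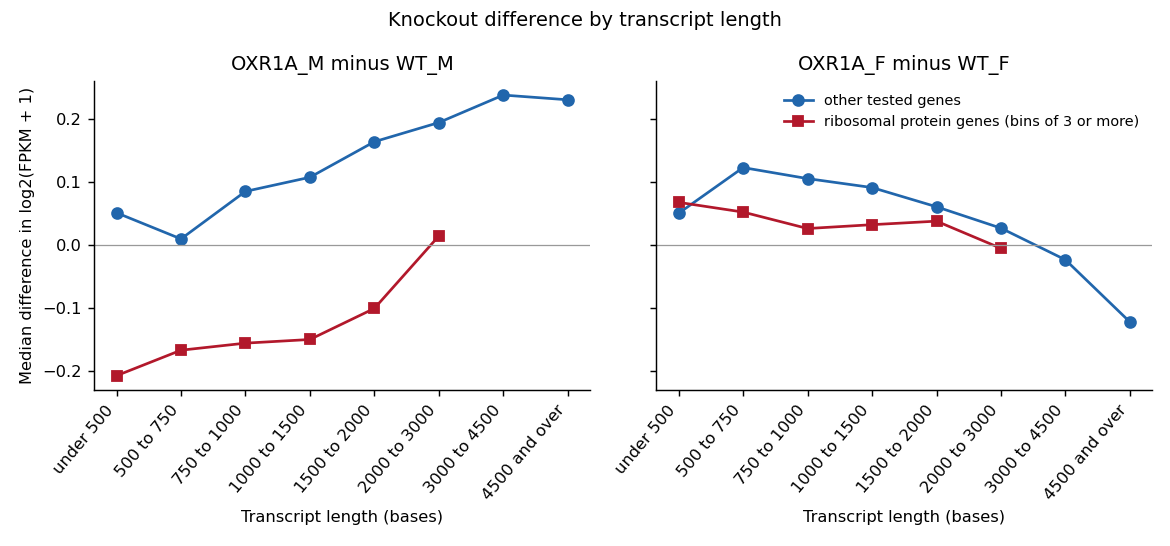
Median difference in log2(FPKM + 1) between OXR1A-/- and wild-type livers by transcript length class, for males (left) and females (right), in other tested genes (circles) and ribosomal protein genes (squares, classes of 3 or more). In males the members lie below the other genes in each class they share. In females the other genes lie at -0.12 in the longest class and the members stay between 0 and 0.07 except for -0.0048 at 2000 to 3000 bases. The female members also lie below the other genes in each shared class except the shortest, by smaller margins.

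Rps6, the small-subunit protein that S6 kinase phosphorylates downstream of mTORC1 (chr4:86854099-86857367), had 249.7, 305 and 312 FPKM in OXR1A-/- males, against 305, 420.4 and 292 FPKM in wild-type males. The groups overlapped, and the difference was -0.22 (SE 0.15, limma adjusted p = 0.39). Rpl37a, a zinc-finger protein of the large subunit, had 140.5, 169.9 and 213 FPKM in OXR1A-/- males, against 176, 313 and 197 FPKM in wild-type males. Only wild-type male 2 lay above every OXR1A-/- value, and the difference was -0.36 (SE 0.22, limma adjusted p = 0.32). Rpl28, a large-subunit protein whose start window is printed above, had a difference of -0.30 (SE 0.18, limma adjusted p = 0.33).

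Rpl36 had the lowest estimate in both sexes. Its values were 79.5, 60.4 and 99.8 FPKM in OXR1A-/- males and 65.9, 162 and 100.3 FPKM in wild-type males. In females they were 98.1, 104 and 73.2 FPKM in OXR1A-/- livers and 126, 103 and 127 FPKM in wild-type livers. The ranges overlapped in both sexes, with differences of -0.38 (SE 0.28) in each and limma adjusted p of 0.42 in males and 0.89 in females.

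Rpl7l1, an L7-like protein (chr17:46773907-46782656), departed from the family. It had 22.8, 26.04 and 25.3 FPKM in OXR1A-/- males, against 21.0, 21.6 and 21.6 FPKM in wild-type males, the only member with every knockout male above every wild-type male, a pattern that 21.2% of all tested genes had. No member had the opposite pattern, which 2.49% of all genes had. The difference was 0.20 (SE 0.10, limma adjusted p = 0.25), the smallest p among the 79. In females it had 20.7, 22.5 and 23.4 FPKM in OXR1A-/- livers, against 21.0, 18.2 and 20.2 FPKM in wild-type livers, a difference of 0.16 (limma adjusted p = 0.87). Its transcript, at 2606 bases, is one of the longest in the family, and its correlation with the length slope was the weakest.

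OXR1A-/- females against wild-type females also gave no call. limma with Benjamini-Hochberg adjustment called 0 of 79, against 0.0174% of all tested genes, and 0 had an unadjusted p under 0.05, against 6.13% of all genes. The median difference was 0.04, against 0.003 for all genes, with 56 positive and 23 negative, and the range ran from -0.38 in Rpl36 to 0.29 in Rplp1. Here OXR1A-/- female 2 carried the direction: without it the median was -0.06, and without wild-type female 2 it was -0.02, while leaving out any of the other 4 female libraries gave 0.06 to 0.09. Beside other genes of their length class the female members were lower except under 500 bases, with medians of 0.05 against 0.12 at 500 to 750 bases. With the linear length trend removed, 55 of the 79 were negative, against 46.9% of all genes. On that scale limma called 0 of the 79, against 0.00876% of all genes.

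Every OXR1A-/- female was above every wild-type female for 3 members, Rplp1, Rps27a and Rpl39, a pattern that 9.22% of all tested genes had, and the opposite held for 0 members and 8.42% of all genes. Rplp1, an acidic protein of the stalk that recruits elongation factors (chr9:61913283-61914510), had 348, 444 and 323 FPKM in OXR1A-/- females, against 297, 291 and 315 FPKM in wild-type females. The difference was 0.29 (SE 0.24, limma adjusted p = 0.89). Rps27a, made as a fusion with ubiquitin, had 240.4, 293 and 239 FPKM in OXR1A-/- females, against 231, 219.7 and 237 FPKM in wild-type females. Its margin was narrow, with a difference of 0.16 (SE 0.19, limma adjusted p = 0.93).

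Rpl39, a small X-linked protein of the peptide exit tunnel, had 149.8, 185 and 152 FPKM in OXR1A-/- females, against 148, 114 and 147 FPKM in wild-type females. The groups lay close apart from OXR1A-/- female 2 and wild-type female 2, and the difference was 0.25 (SE 0.21, limma adjusted p = 0.89). Rpl14, with a difference of -0.24 (SE 0.16, limma adjusted p = 0.88), and Rpl3, with -0.20 (SE 0.15, limma adjusted p = 0.89), had estimates of the other sign and overlapping groups.

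The male knockout difference minus the female one was negative in 74 of 79 genes, with a median of -0.19 against 0.20 over all genes. limma called 0 members, against 0.0261% of all genes, and 0 had an unadjusted p under 0.05, against 9.03% of all genes. Rplp1 had the lowest value, -0.51 (95% interval -1.24 to 0.22, limma adjusted p = 0.55), and the smallest p. Next by p were Rpl39 with -0.40 (SE 0.29, limma adjusted p = 0.56), Rps24 with -0.38 and Rpl13 with -0.33. Without wild-type male 2 the median was 0.01, with 38 negative. Leaving out any 1 of the other 11 libraries gave -0.31 to -0.07.

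**Figure D4:**
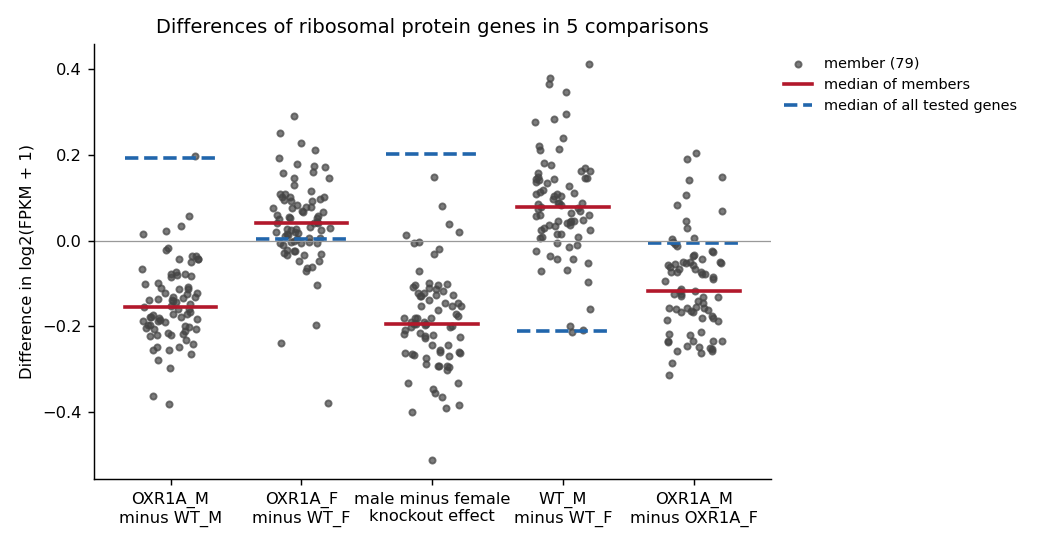
Each point is the difference in log2(FPKM + 1) of 1 of 79 ribosomal protein genes in the 5 comparisons. The red line is their median and the dashed blue line the median of all tested genes. In OXR1A-/- males against wild-type males the points lie mostly below 0 around -0.16, and in females around 0.04. None passed the limma threshold.

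Males were next set against females. In wild-type livers limma called 0 members, against 13.4% of all tested genes, and 1 member, Rps27l, had an unadjusted p under 0.05, against 32.8% of all genes. The median difference was 0.08, against -0.21 for all genes, and 64 were positive. Without wild-type male 2 it was -0.12, with 71 negative. Every male lay above every female for 2 members, Rps27l and Rpl7l1, against 6.04% of all genes, and below for 0, against 34.1% of all genes. Rpl39 (0.35, SE 0.21, limma adjusted p = 0.26), Rpl41 (0.38, SE 0.23, limma adjusted p = 0.28) and Rpl12 (0.28, SE 0.20, limma adjusted p = 0.33) came next by p, and their groups overlapped.

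In OXR1A-/- livers, where limma also called 0 members (3.67% of all genes), 0 members had an unadjusted p under 0.05, against 15.5% of all genes. The median male minus female difference was -0.12, against -0.0053 for all genes, with 68 negative, and without OXR1A-/- male 1 it was 0.01. Every OXR1A-/- male lay below every OXR1A-/- female for 7 members, among them Rps2, Rpl7, Rps27, Rpl28 and Rpl22, a pattern of 12.0% of all genes, and above for 0, against 10.1% of all genes. Rpl7 had 313, 345 and 382 FPKM in OXR1A-/- males, against 386, 449.5 and 388 FPKM in OXR1A-/- females, a difference of -0.23 (SE 0.13, limma adjusted p = 0.46). Rps18 (-0.26, SE 0.17) and Rpl7l1 (0.15, SE 0.10) had limma adjusted p of 0.56 each, and Rps27 (-0.31, SE 0.22) one of 0.57.

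The paralogues Rps27l and Rps27 had the highest and the lowest wild-type male minus female difference of the family, 0.41 and -0.21. Rps27 encodes a zinc-finger protein of the small subunit, and Rps27l (chr9:66944624-66949522) a close paralogue known as a target of p53. Rps27l had 188, 244 and 257 FPKM in OXR1A-/- males and 210.4, 287 and 211 FPKM in wild-type males. It had 178, 238 and 182 FPKM in OXR1A-/- females and 186, 157 and 183 FPKM in wild-type females. The wild-type males stood clear of the wild-type females, while the OXR1A-/- sexes overlapped.

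The Rps27l difference between wild-type sexes was 0.41 (95% interval 0.04 to 0.79, limma adjusted p = 0.12). It passed the limma threshold under 4 alternatives, with 0.42 after quantile normalization (adjusted p = 0.046), 0.47 after the linear length trend was removed (adjusted p = 0.0082; with the replicate number added, adjusted p = 0.022) and 0.38 after a smooth trend was removed (adjusted p = 0.0089). Rps27 had 262, 335 and 331 FPKM in OXR1A-/- males and 245, 497 and 300.3 FPKM in wild-type males, against 383.5, 428 and 341 FPKM in OXR1A-/- females and 403, 366 and 389 FPKM in wild-type females. Apart from wild-type male 2, every male was below every female. A ratio of both genes, whose transcripts are close in length (499 bases for Rps27l and 445.5 for Rps27), is less exposed to a length trend. It was 0.716, 0.73 and 0.775 in OXR1A-/- males and 0.857, 0.577 and 0.703 in wild-type males, against 0.463, 0.555 and 0.533 in OXR1A-/- females and 0.462, 0.431 and 0.472 in wild-type females. Males lay above females without overlap in both genotypes, and the knockout and wild-type ranges overlapped in males. The ratio was taken because the genes are paralogues, and no test was made of it.

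Rpl22l1, the paralogue that stands in for the large-subunit protein Rpl22, had 30.1, 44.6 and 39.6 FPKM in OXR1A-/- males and 23.2, 55.8 and 38.0 FPKM in wild-type males. In OXR1A-/- females it had 32.4, 43.0 and 25.4 FPKM and in wild-type females 30.7, 24.7 and 29.8 FPKM. Its ratio to Rpl22 was 0.639, 0.778 and 0.684 in OXR1A-/- males, 0.482, 0.845 and 0.794 in wild-type males, 0.551, 0.65 and 0.431 in OXR1A-/- females and 0.499, 0.43 and 0.453 in wild-type females. All of these groups overlapped except OXR1A-/- males with wild-type females. The ratio of Rpl7l1 to Rpl7 was 0.073, 0.075 and 0.066 in OXR1A-/- males, above the 0.061, 0.049 and 0.061 of wild-type males. In females it was 0.054, 0.05 and 0.06 in OXR1A-/- livers and 0.054, 0.052 and 0.049 in wild-type livers, which overlapped. The transcripts of Rpl7l1 and Rpl7 differ in length (2606 and 1163 bases), so their ratio is exposed to a length trend. The part of the length slope in that ratio was not tested.

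**Figure D5:**
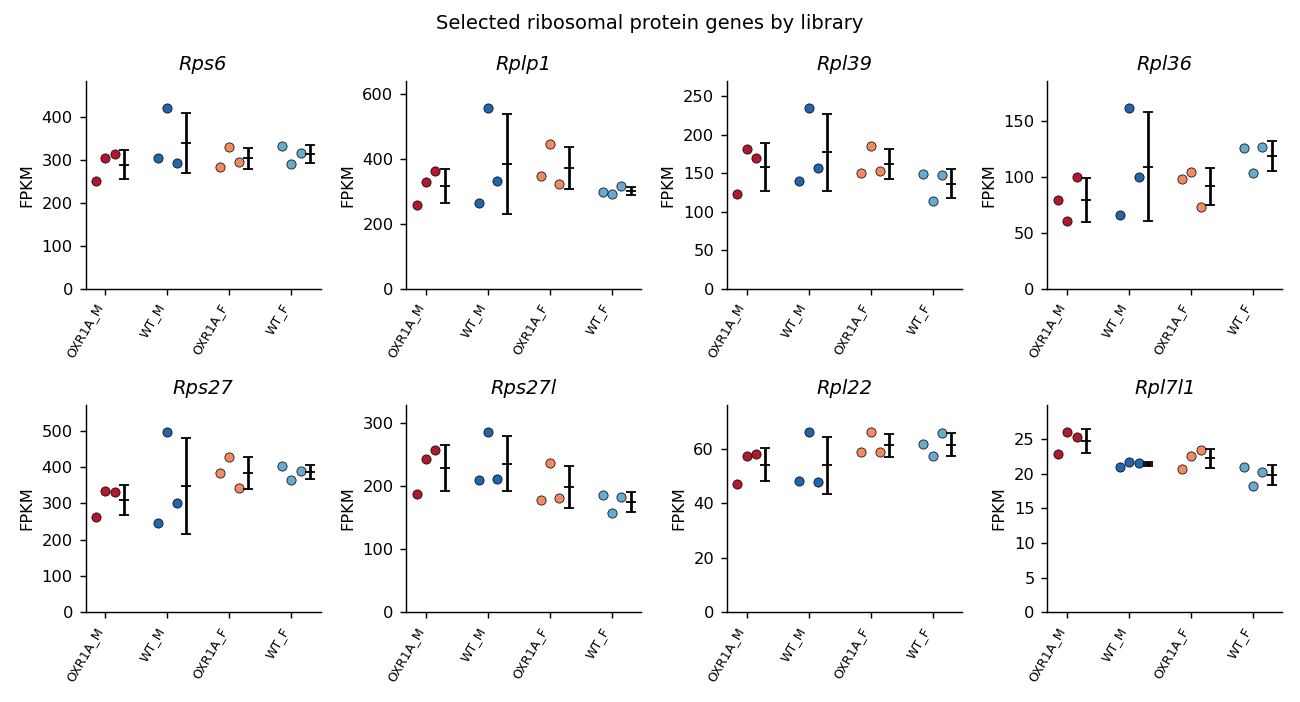
FPKM of 8 ribosomal protein genes in each library (points), with the mean and SD of the 3 libraries of a group (bars). Wild-type male 2 is the highest point of its group in most panels, and Rpl7l1 is the panel in which the OXR1A-/- males lie clear of the wild-type males.

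The other stalk proteins differed by less than the spread of their groups. Rplp0, the scaffold of the stalk, averaged 239 ± 20.1 FPKM in OXR1A-/- males and 266 ± 54.9 FPKM in wild-type males, and 247 ± 19.7 FPKM in OXR1A-/- females and 247 ± 8.46 FPKM in wild-type females (SD, n = 3 each). Rplp2, the partner of Rplp1, averaged 228 ± 41.9 FPKM in OXR1A-/- males and 247 ± 82.9 FPKM in wild-type males, and 221 ± 41.8 FPKM in OXR1A-/- females and 228 ± 7.15 FPKM in wild-type females (SD, n = 3 each). Each difference was smaller than the larger SD of its pair. The 4 X-linked members, Rpl10, Rps4x, Rpl36a and Rpl39, had knockout differences of -0.18, -0.14, -0.17 and -0.15 in males and 0.02, 0.08, 0.13 and 0.25 in females, and wild-type male minus female differences of -0.02, 0.06, 0.21 and 0.35. Among autosomal genes at the extremes of annotated length, the shortest, Rpl38, had differences of -0.21 in males and 0.06 in females, and Rps15a 0.06 and -0.02.

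Genes that make or use ribosomes were read beside them. Of 49 ribosome biogenesis genes, 2 rose and 0 fell in OXR1A-/- males against wild-type males, against 2.55% of all genes called in this comparison, and 20 had an unadjusted p under 0.05, against 23.9% of all genes. Their median difference was 0.26, against 0.19 for all genes and -0.16 for the ribosomal proteins. Nop58, a core protein of box C/D small nucleolar particles, rose by 0.90 (SE 0.13, limma adjusted p = 0.0095), and Gnl3, the nucleolar GTPase nucleostemin, by 0.71 (SE 0.13, limma adjusted p = 0.021). Of 35 translation initiation and elongation factor genes 1 rose, Eif1a, which acts in start codon scanning, by 0.86 (SE 0.20, limma adjusted p = 0.046), 5 had an unadjusted p under 0.05 and the median was 0.16. The median transcripts of both lists, 2785 and 2542 bases, are longer than the 791 bases of the ribosomal proteins and near the 2722 bases of all tested genes. None of either list was called in females, against 0.0174% of all genes. The medians there were 0.12 and 0.06, and 4 and 1 genes had an unadjusted p under 0.05, against 6.13% of all genes.

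None of the 23 other 5'TOP mRNAs, the 31 genes of mTORC1 signalling, the 76 mitochondrial ribosomal protein genes, the 74 respiratory chain genes or the 38 proteasome genes was called by limma in either sex. Of all tested genes 2.55% were called in males and 0.0174% in females. In males their median differences were 0.03, 0.19, 0.06, -0.09 and 0.27, and 1, 6, 2, 0 and 12 of them had an unadjusted p under 0.05, against 23.9% of all genes. In females the medians were 0.02, -0.03, 0.11, 0.08 and 0.18, with 0, 0, 2, 0 and 5 genes under that p, against 6.13% of all genes. The respiratory chain list, with a median transcript of 760 bases, is the one nearest the ribosomal proteins in length, and it had 15 of 74 positive differences in males.

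Between wild-type males and females, more of the called genes of these lists were lower than higher in males, in a comparison where 75.7% of all genes had a negative difference and 13.4% were called. Rrp9, a protein of the U3 particle that processes ribosomal RNA, fell by 0.77 (limma adjusted p = 0.0061), and Nop16, a nucleolar protein, rose by 0.66 (limma adjusted p = 0.019). Among initiation factors the X-linked Eif2s3x fell by 0.95, Eif4b by 0.91 and Eif4a2 by 0.51 (limma adjusted p of 0.0060, 0.012 and 0.045). Among mTORC1 genes the sestrins Sesn1 and Sesn2, stress-induced inhibitors of the complex, fell by 0.79 and 0.73, and Eef2k, the kinase of elongation factor 2, by 0.66 (limma adjusted p of 0.019, 0.024 and 0.035). Mrpl20 of the mitochondrial ribosome and Nap1l1, a histone chaperone with a 5'TOP mRNA, were higher in males by 0.54 and 0.50 (limma adjusted p of 0.043 and 0.019). Between OXR1A-/- males and females limma called Nap1l1 (0.80, adjusted p = 0.0030) and Nolc1 (0.60, adjusted p = 0.036), both higher in males.

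Bulk liver values cannot tell fewer cells of a type from less RNA per cell. Several marker lists differed between the male groups, in a comparison where 2.55% of all genes were called and 23.9% had an unadjusted p under 0.05. The summed level of 5 hepatocyte markers was 47560 to 50480 FPKM in OXR1A-/- males and 59720 to 69700 FPKM in wild-type males, with 0 of 5 called and 4 of 5 under an unadjusted p of 0.05. Kupffer cell markers summed to 128.8 to 233.2 FPKM in OXR1A-/- males and 56.5 to 85.0 FPKM in wild-type males, with 4 of 5 called, and sinusoidal endothelial markers to 87.0 to 93.7 and 56.9 to 63.1 FPKM, with 3 of 5 called. For stellate cells they summed to 136.3 to 209.7 FPKM in OXR1A-/- males and 87.5 to 107 FPKM in wild-type males, with 1 of 5 called. In females the ranges of the hepatocyte, Kupffer, endothelial and stellate sums overlapped, and 0 markers of these lists were called, against 0.0174% of all genes. Red cell sums were 195.6 to 320.2 FPKM in OXR1A-/- males and 268.5 to 367 FPKM in wild-type males. Cholangiocyte sums were 39.8 to 61.3 FPKM in OXR1A-/- males and 33.7 to 52.8 FPKM in wild-type males. Both sums overlapped between genotypes in either sex, with 0 markers called. Between wild-type males and females, 5 of 5 Kupffer, 4 of 5 endothelial and 3 of 5 stellate markers were called lower in males. Of 5 hepatocyte markers 1 was called higher in males, Serpina1c (0.71, limma adjusted p = 0.022). Of 2 tested neutrophil markers 1 was called lower in males, S100a8 (-0.97, limma adjusted p = 0.0059). In that comparison 13.4% of all genes were called. The red cell gene Alas2 was called higher in males, by 2.62 (limma adjusted p = 4.4e-05). The red cell genes Hba-a1 and Hba-a2 had negative differences there, -0.68 and -0.11, and were not called. Of 4 cholangiocyte markers 0 were called. Neutrophil markers summed to 3.40 to 7.67 FPKM in OXR1A-/- males and 1.78 to 3.36 FPKM in wild-type males, and to 9.11 to 15.3 FPKM in OXR1A-/- females and 4.50 to 7.81 FPKM in wild-type females. These low sums did not overlap between genotypes in either sex, and limma called 0 of the 2 tested neutrophil genes in both, with 1 in males and 2 in females under an unadjusted p of 0.05. Among all tested genes, 21.2% in males and 9.22% in females had every knockout library above every wild-type one. In females 6.13% of all genes had an unadjusted p under 0.05. Lymphocyte and exocrine pancreas markers summed to at most 17.1 and 6.02 FPKM in any library. The part of these markers in the ribosomal protein values was not tested.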

How the data were processed

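RNA of 12 mouse livers was sequenced as 4 groups of 3 libraries. The authors deposited FPKM per gene with 2 decimals. The submitters' processing notes name TopHat2 and mm10, while nothing used here states the quantifier, annotation or filters. No counts were used. Depth was estimated from the steps that whole fragments leave in low FPKM values, a fitted and approximate figure.

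A gene was kept if 3 or more libraries reached 1 FPKM (11514 genes). The fit was two-sided limma (version 3.58.1, R 4.3.3) of log2(FPKM + 1), with a term for each group and a variance trend. P-values were adjusted by Benjamini-Hochberg over every kept gene and called under 0.05. Fold differences on this scale understate those of low genes. Transcript lengths (GENCODE M21) were found for 18269 genes (98.4%) and may differ from those the authors divided by. Sequences and gene positions are RefSeq's on GRCm38.p6 (18498 genes matched). The fit was first tested on simulated data, with 200 of 11422 genes changed by 1 log2 unit in OXR1A-/- males. It called 75% of the changed genes and also 24 unchanged genes. With the linear length trend removed it called 86.5% and 12 unchanged genes. Members and lists were chosen with earlier results of these data known. Named genes are the 4 smallest p per comparison and fixed roles, apart from a few that are not reported here. The alternatives tried were other pseudocounts, filters, scalings and weights, length corrections, a replicate block and leaving out each library.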

Additional observations from a re-analysis of the deposited data

How the results depend on the processing

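Taken over all alternatives, 272 of 280 values of the 10 main results stayed within the spread between replicates or at the same count. That criterion is loose. Library scores relative to all genes were -0.10, 0.77 and 0.01 in wild-type males and -0.35, -0.09 and 0.10 in OXR1A-/- males. With that spread, the male median relative to all genes (-0.35) could have vanished and still counted as unchanged. The sign of the small female relative median (0.04) still turned with quantile normalization, each length correction and without OXR1A-/- female 2, wild-type female 2 or the 3 libraries poorest in long transcripts, and that between OXR1A-/- sexes (-0.11) turned without OXR1A-/- male 1 or OXR1A-/- female 2. In wild-type males against females the 0 members called became 1 with quantile normalization (Rps27l, with 9.46% of all genes called), 2 with the linear length trend removed (Rps27l and Rpl39, both higher; 13% of all genes), 3 with the smooth trend removed (also Rpl7l1; 13.8%) and 1 with the linear trend and replicate block together (11%). With the slope as a covariate it became 3 lower in males (Rps27, Rpl22 and Rps2; 22.5% of all genes). In OXR1A-/- males against females the smooth trend gave 1 (Rps27l; 6.81% of all genes). The covariate moved the median relative to all genes from 0.04 to -0.13 in females and from -0.40 to -0.11 for the difference between the sexes. The cause of these changes was not tested. Leaving out 1 library, the median relative to all genes ran from -0.52 to -0.08 in males, -0.08 to 0.10 in females, -0.55 to -0.13 for their difference, 0.01 to 0.46 between wild-type sexes and -0.22 to 0.01 between OXR1A-/- sexes, with 0 members called in each. The share of all genes called was then 0.504 to 4.95% in males, 0 to 0.104% in females and 0.00869 to 0.191% for their difference. It was 5.86 to 18.1% between wild-type sexes and 1.75 to 5.53% between OXR1A-/- sexes.

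Same-numbered libraries did not deviate together as a rule (correlations of -0.32 to 0.56 over 18 pairs, median -0.09). Some did: OXR1A-/- male 1 had 0.56 with wild-type male 1 and 0.41 with OXR1A-/- female 1, but -0.13 with wild-type female 1. The highest correlation of a library was with its own number in 6 libraries. The labels name no batch, so the replicate block is only a check: it called 0 members in all 5 comparisons. Chosen after seeing the data, leaving out the 3 libraries poorest in long transcripts gave a male relative median of -0.18, leaving out the 3 with traces of the other sex -0.45, and scaling to the member median -0.31. In the male knockout comparison these settings called 0 members, against 2.78%, 1.09% and 0.834% of all genes. With 3 libraries a group and intervals near 0.40 in log2, smaller shifts of single genes are beyond this design.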

Other observations

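Rows outside the symbol rule carried ribosomal protein sequence as well. The pseudogene row Rpl31-ps12 was listed at 107, 162 and 139 FPKM in OXR1A-/- males, 103, 188 and 116 FPKM in wild-type males, 137, 168 and 126 FPKM in OXR1A-/- females and 137, 126 and 129 FPKM in wild-type females. Wild-type male 2 was the highest library there too. Fragments shared between near-identical copies could be split between such rows and their parent genes, so those levels are uncertain. Rpl36al, an autosomal copy of the X-linked Rpl36a, had 231, 329 and 335 FPKM in OXR1A-/- males, 289, 465 and 276 FPKM in wild-type males, 235, 308 and 266 FPKM in OXR1A-/- females and 236, 221 and 232 FPKM in wild-type females. Its wild-type male minus female difference was 0.54 (SE 0.21, limma adjusted p = 0.10).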
